A study of Mus musculus with 2 samples.

Results

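Spliced antisense models are transcript models that the authors' software, TALON, assigned to the strand opposite an annotated gene and that hold at least 2 exons. They were taken from the deposited models by class and exon number alone, so no level of expression chose them. Replicate 1 held 604 such models of 103386 listed models and replicate 2 held 635 of 100292. Matched by chromosome, strand and all introns, they formed 1155 different intron chains. The gene on the opposite strand is called the host, and reads of the host's own strand are called sense reads.

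The libraries are long-read RNA libraries of whole adrenal gland from 10-day-old female mice of the strain B6CASTF1/J, made from total RNA with ERCC and SIRV spike-ins. Both belong to 1 group, for which no treatment is named, and are labelled biological replicates 1 and 2. The library texts name animal 03 for both, whereas the biosample texts name 03 and 04, so any test below compares 2 libraries whose spread may be technical. Without ERCC spike-ins the tables held 593058 and 772037 reads, and a model with 0 reads could still reach 5.06 or 3.89 CPM (reads scaled to the library total), the level of 3 reads. Intervals and limits cover counting error only.

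Adrenal cortex genes of the steroidogenic list had reads in 22 of 22 cases in each library (19511 and 24641 CPM summed), and all 27 chromaffin genes had reads in each. The libraries differed in genes of neighbouring tissues. A liver list summed to 15425 and 2069 CPM, a skeletal muscle list to 14437 and 5417 CPM, and a kidney list to 5.06 CPM in replicate 1, where 1 of 12 genes had reads, and 1060 CPM in replicate 2, where 11 had. The part of these differences in the counts of antisense models was not tested.

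As background, many mammalian genes are also transcribed from the opposite strand. Some antisense RNAs begin at the host's own promoter and run away from it, and others begin inside the gene or past its end and run across its exons. The spliceosome reads an RNA in 1 direction, and nearly all of its introns begin with GT and end with AG. An intron copied onto the opposite strand with the same ends therefore reads CT at its start and AC at its end, and letters at the intron ends show which strand an intron was removed from.

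Introns of the spliced antisense models fell into 2 kinds with different letters at their ends, shown here for the introns with most reads whose letters could be read. Letters were read from GENCODE M21 transcript sequences and RefSeq promoter windows (GRCm38.p6, the mm10 assembly), which cover only ends that lie in an exon or a promoter of some annotated transcript. Each window holds 10 bases on either side of an intron end, 5′ to 3′ on the strand of the antisense model, and capitals mark the first or last pair of intron bases. The first 4 introns are identical, at both ends, to an annotated intron of the host on the opposite strand. They lie at chr7:70354932-70357762 (Nr2f2), chr12:109646752-109649153 (Rian), chr2:181585074-181585672 (Zfp512b) and chr6:124705657-124705740 (Emg1).
Nr2f2, intron start: ccacaggcatCTggaagaaa
Nr2f2, intron end: tccttcctACctgaggtgaa
Rian, intron start: agaatgcattCTgagagttc
Rian, intron end: cttcacttACttcagctgcc
Zfp512b, intron start: ggaaccaattCTagggcaag
Zfp512b, intron end: gccctcttACctctccgtgg
Emg1, intron start: tcagcaggctCTgagaaagg
Emg1, intron end: acacagatACctggtgggtg

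The other 4 introns match no annotated intron. They lie at chr9:124423396-124423791 (opposite Ppp2r3d), chr15:81384249-81384444 (St13), chr19:5840809-5840867 (Neat1) and chr4:129180493-129181232 (S100pbp).
Ppp2r3d, intron start: ctcgagcaggGTagggcccg
Ppp2r3d, intron end: tttacggcAGgaagtccctc
St13, intron start: acataaaaagGCttccaaga
St13, intron end: aaaaaaaaAGgcttccaaga
Neat1, intron start: gcatagagcaGTgtttgcag
Neat1, intron end: catagagcAGtgtttgcagg
S100pbp, intron start: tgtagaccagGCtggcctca
S100pbp, intron end: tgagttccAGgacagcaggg

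Counted once over both libraries, 29 of the 420 introns identical to a host intron could be read, and all 29 began with CT and ended with AC on the antisense strand (100%, exact 95% interval 88.1 to 100%). Of the 1170 other introns 77 could be read. Of these, 71 began with GT and ended with AG (92.2%, 83.8 to 97.1%), 3 began with GC and ended with AG, and 0 had CT and AC (upper limit 4.68%). Annotated introns, read on their own strand in the same way, had GT and AG in 94.9% of 25818 readable cases and CT and AC in 4. Where an intron repeats an annotated one on the other strand the letters follow from the sense intron, so the first result is a property of its position. The letters of the other introns were not used by the rule, and 71 of 77 had the usual intron letters on the antisense strand. Whether the authors' software moved intron ends towards such letters is not stated.

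Some of the latter introns lay between copies of the same short sequence. At St13, which encodes a co-chaperone of Hsp70, the windows at both intron ends shared a run of 16 letters, and at Neat1, a long noncoding RNA of nuclear paraspeckles, they shared 19 of 20. A shared run of 8 or more letters was found at 7 of 69 readable introns that match no annotated intron (10.1%, exact 95% interval 4.18 to 19.8%) and at 0 of 28 identical ones. It was found at 12 of 966 annotated introns of chromosome 19 (1.24%). The longest shared run at an identical intron was 5 letters.

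The 604 and 635 models carried 869 and 883 reads, which were 0.147% and 0.114% of reads without ERCC (1465 and 1144 CPM). They were a small share of antisense models: 3.54% in replicate 1 and 4.78% in replicate 2, beside 16456 and 12645 antisense models with a single exon. Most had 1 read, 531 (87.9%) in replicate 1 and 545 (85.8%) in replicate 2. The highest counts were 55 and 28 reads. Models with 2 exons made up 76.3% and 71.7%, and the most exons were 7 and 8. Introns measured 37 to 173727 bases in replicate 1 (median 1092 over 824 introns) and 37 to 147963 bases in replicate 2 (median 1283 over 912). No model held an annotated intron of its own strand, which the antisense class may fix in advance and is no separate result.

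By their introns the models fell into a group that mirrors the host and a group that shares nothing with it. In mirror models every intron was identical to an annotated intron of the opposite strand. They numbered 180 in replicate 1 (29.8%, exact 95% interval 26.2 to 33.6%) and 169 in replicate 2 (26.6%, 23.2 to 30.2%). Models that shared no intron end with the opposite strand numbered 406 (67.2%) and 446 (70.2%). In between lay 12 and 14 models with some identical introns, and 6 and 6 that shared an intron end only. In each mirror model at least 1 intron was an intron of the named host.

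**Figure D1:**
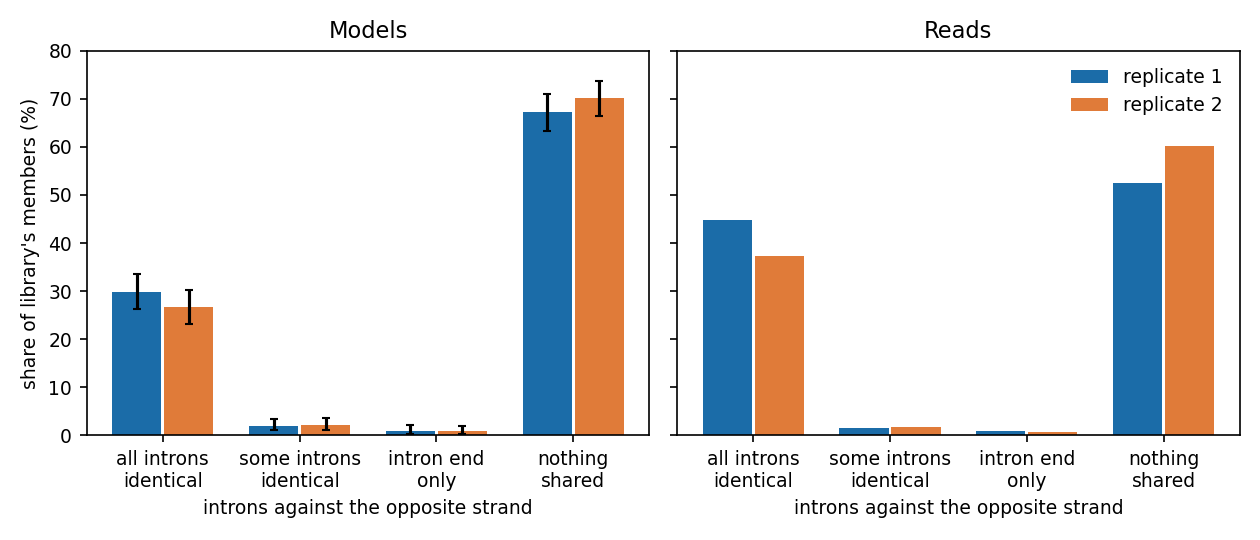
Share of spliced antisense models (left) and of their reads (right), in percent, by how the introns compare with annotated introns of the opposite strand. Blue bars are replicate 1 and orange bars replicate 2, and error bars on models are exact 95% intervals. Mirror models held 29.8% and 26.6% of models but 44.9% and 37.4% of reads.

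Mirror models had more reads each. They held 390 of 869 reads in replicate 1 (44.9%) and 330 of 883 in replicate 2 (37.4%). Without the model opposite Mc2r, the receptor for corticotropin, the share in replicate 1 was 41.2%. At least 2 reads were found for 17.8% and 23.7% of mirror models, and for 9.61% and 11.0% of models that shared nothing. Their spliced length had a median of 2266 and 2047 bases, against 1462.5 and 1198.5 bases. Hosts of mirror models had a median of 16 and 20 sense reads, hosts of the others 9.5 and 9, and all annotated genes with reads 9 and 10. The host medians include hosts with 0 sense reads, at 5 and 7 mirror models and 48 and 73 of the others. The median of all genes leaves out genes with 0 reads, so it is not a like measure.

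Between libraries, 84 intron chains were antisense models in both, 13.9% of replicate 1 and 13.2% of replicate 2. Of these, 42 were mirror models and 41 shared nothing. Mirror models recurred in 23.3% and 24.9% of cases and the others in 10.1% and 9.19%. Recurrence was near that of spliced intergenic models (15.2% and 11.2%) and of models with an unannotated splice site in annotated genes (16.5% and 13.8%), and below that of annotated transcripts (82.0% and 77.6%). In 33 of the 84 each library had 1 read. The class that TALON gives to an intron chain differed between libraries: 21 members of replicate 1 and 23 of replicate 2 were listed under another class in the other library. Counting reads of a chain whatever its class, 128 chains were in both libraries, 53 of them mirror and 73 sharing nothing.

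Reads of single intron chains are given below over all classes for this reason. On that count the 1155 chains carried 914 and 1071 reads, of which mirror chains held 44.0% and 44.4%. Chains with 10 or more reads summed numbered 16, 14 of them mirror, and each of the 16 had reads in both libraries. None of these 16 differed between the libraries, where 3.22% of all 10875 spliced chains tested were called (two-sided exact binomial test, Benjamini-Hochberg over all chains, adjusted p below 0.05 and 2-fold), 2.29% as higher in replicate 1 and 0.929% as higher in replicate 2. With edgeR's negative binomial exact test also 0 of 16 were called, and 0 had an unadjusted p below 0.05 with either tool. The edgeR dispersion was estimated from the same 2 libraries, treated as replicates, so this is no independent check of the binomial result. In simulated libraries with counting noise only, the binomial test recovered 39.6% of chains changed 3-fold and 62.5% of those changed 5-fold. It recovered 81.6% of those changed 10-fold and 83.0% of those changed 20-fold, so large differences could also be missed. These rates cover all simulated chains with 10 or more reads, and recovery at the read counts of the 16 was not measured apart.

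Corticotropin acts on the adrenal cortex through Mc2r, and the chain with most reads lay opposite this gene. It spanned chr18:68407722-68429320 on the plus strand with 3 exons, had 55 reads in replicate 1 and 93 in replicate 2 (92.7 and 120 CPM), and both of its introns were identical to Mc2r introns, the longer of 19293 bases. In replicate 2 it was listed as an unannotated combination of annotated splice sites, so the antisense class alone showed 55 and 0 reads. Sense reads of Mc2r numbered 12 and 28. Of these, 5 and 6 crossed the 2 introns in replicate 1, and 15 and 19 did in replicate 2. Reads placed on the antisense strand thus exceeded sense reads in both libraries. Here and for the chains below, the strand is that of the deposited model. The part of reads on the wrong strand was not tested, and letters of the Mc2r introns are not among those shown above.

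Igf1r encodes the receptor for insulin-like growth factor 1. Its antisense chain, on the minus strand at chr7:67952400-68007460, had 11 and 28 reads, while Igf1r itself had 6 and 8. The single intron, of 50857 bases, is an annotated Igf1r intron, yet 0 sense reads crossed it in either library. At 18.5 and 36.3 CPM the libraries differed by less than the test between them could call (exact binomial p = 0.0742 before adjustment, and 0.261 with edgeR).

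Crebbp encodes a histone acetyltransferase and coactivator of transcription. Opposite it lay the mirror chain with most exons, 6, at chr16:4128444-4213997 on the plus strand. All 5 introns were Crebbp introns, the longest of 33005 bases. It had 15 reads in each library and the same deposited start and end in both, while Crebbp had 7 and 5 sense reads and 0 across any of the 5 introns.

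Mbnl1 encodes a regulator of alternative splicing. The antisense chain at chr3:60529549-60595749 had 18 and 20 reads across an intron of 65789 bases. Sense reads across the same intron were 8 and 2, of 58 and 38 for the gene. Opposite Gtf2a1, a subunit of the general transcription factor IIA, a chain of 3 exons had 7 and 4 reads, against 2 and 2 sense reads of which 0 crossed its introns. Rbms3, an RNA-binding protein gene, showed 6 and 5 antisense reads across an intron of 141608 bases, which 1 and 0 sense reads crossed. Carmil1, which encodes a regulator of actin capping protein, had 4 and 8 antisense reads, against 2 and 3 sense reads across the intron. At these 4 hosts the antisense reads outnumbered the sense reads across the same introns in both libraries.

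Other mirror chains lay opposite genes with more sense reads. The nuclear receptor gene Nr2f2 had 11 and 15 antisense reads over 2 introns, against 28 and 31 sense reads at the more used one and 11 and 9 at the other. For Bcl2l1, which encodes the survival protein Bcl-x, the counts were 11 and 12 antisense against 14 and 20 sense. Prpf38b, a splicing factor gene, had 12 and 10 against 14 and 15. At Ubl3, which encodes a membrane-anchored ubiquitin-like protein, 25 and 36 antisense reads stood beside 83 and 133 sense reads across an intron of 39950 bases. Ccdc80, a gene for a secreted matrix protein, had 11 and 8 against 15 and 18. Tspan12, a tetraspanin gene, had 8 and 9 against 93 and 126, and Sh3glb2, an endophilin gene, had 4 and 6 against 75 and 121. Sense reads across the intron, at Nr2f2 the more used one, outnumbered the antisense reads at all 7 of these hosts in both libraries.

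**Figure D2:**
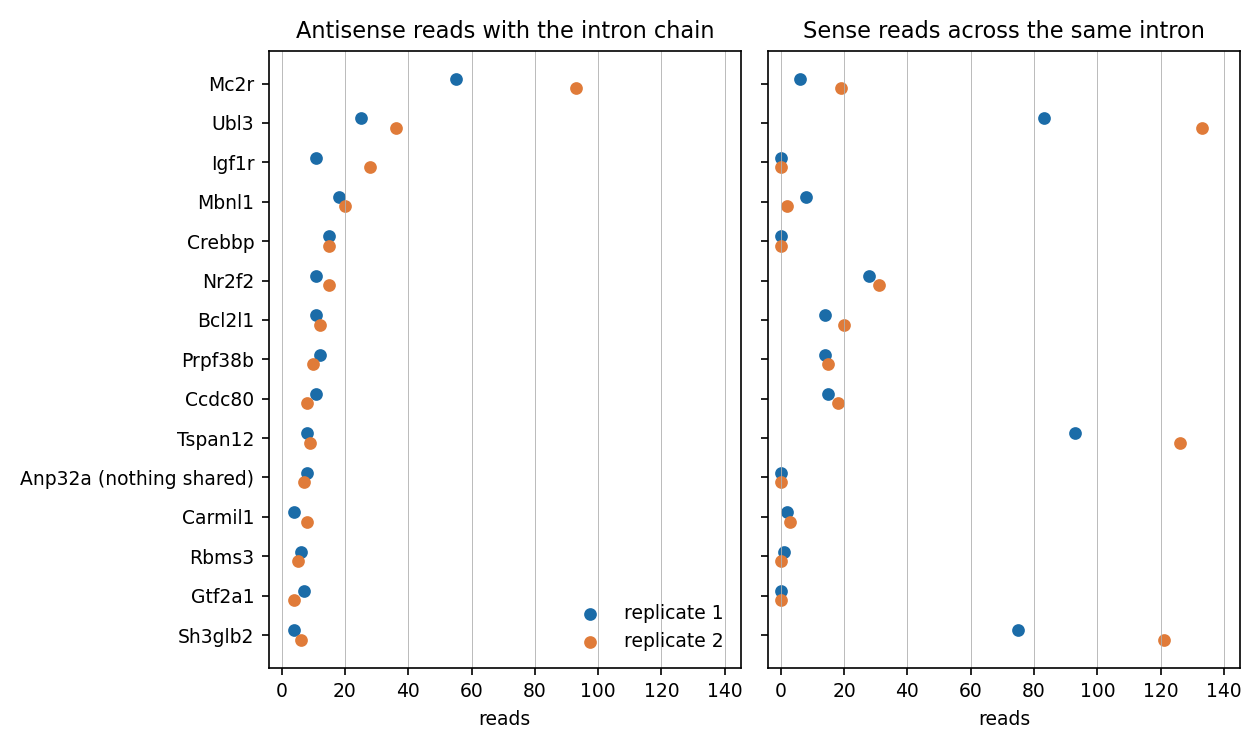
Reads carrying the antisense intron chain (left) and sense reads across the same intron, the most used one where there are several (right), for 15 of the 16 chains with 10 or more reads summed. Each dot is 1 library. Mc2r has 55 and 93 antisense reads, and Igf1r, Crebbp and Gtf2a1 have 0 sense reads across their introns. Anp32a, whose intron is no annotated intron of the host, also shows 0. The chain opposite Ppp2r3d, with 6 and 5 reads, is left out because it is not among the named members.

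Some mirrored introns carried no sense reads at all. The following sums over models count the antisense class alone, which in replicate 2 leaves out the 93 reads of the Mc2r chain and the 36 of the Ubl3 chain. Of 247 and 250 introns identical to a host intron, 43 and 45 had 0 sense reads in the same library, and the median was 9 and 10 sense reads. Antisense reads outnumbered sense reads across the intron in 33 of 180 mirror models in replicate 1 and 35 of 169 in replicate 2. With at least 4 antisense reads this held for 9 and 8 models. Summed over all annotated introns, reads of mirror introns were 594 beside 3648433 sense reads in replicate 1 (0.0163%) and 501 beside 4601441 in replicate 2 (0.0109%). At the mirrored introns themselves they were 6.59% and 4.99%.

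How a read was given its strand is not stated in the sources used here. ERCC spike-ins, which have no antisense transcripts, offer a measure of reads on the wrong strand: 107 of 13619 reads in replicate 1 (0.786%, exact 95% interval 0.644 to 0.949%) and 117 of 16617 in replicate 2 (0.704%, 0.583 to 0.843%). These lay on 4 of 45 and 4 of 52 spike-in species with reads. Their share, of whole reads, is above that of mirror introns among all intron reads. The latter counts a read once for each intron and holds the antisense class alone, so the measures are unlike. Nor can the ERCC share be set against the share at the mirrored introns, since these were listed only where an antisense read was found. The part of reads on the wrong strand in the mirror models was not tested.

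Ends of mirror models met the ends of the host in the reverse order. The 5′ end lay on the exact base of an annotated end of a host transcript in 53 of 180 models (29.4%) and 47 of 169 (27.8%), and the 3′ end on the exact base of an annotated start in 55 (30.6%) and 60 (35.5%). In models that shared nothing the same coincidences were found for 5.75% and 4.08% of 5′ ends and for 3.00% and 3.63% of 3′ ends. Here another coincidence was the most frequent: the 5′ end lay on the exact base of an annotated sense start in 52 of 400 models (13.0%) and 64 of 441 (14.5%), against 1.67% and 4.14% of mirror models. Model ends are those deposited, which need not be the ends of each read.

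**Figure D3:**
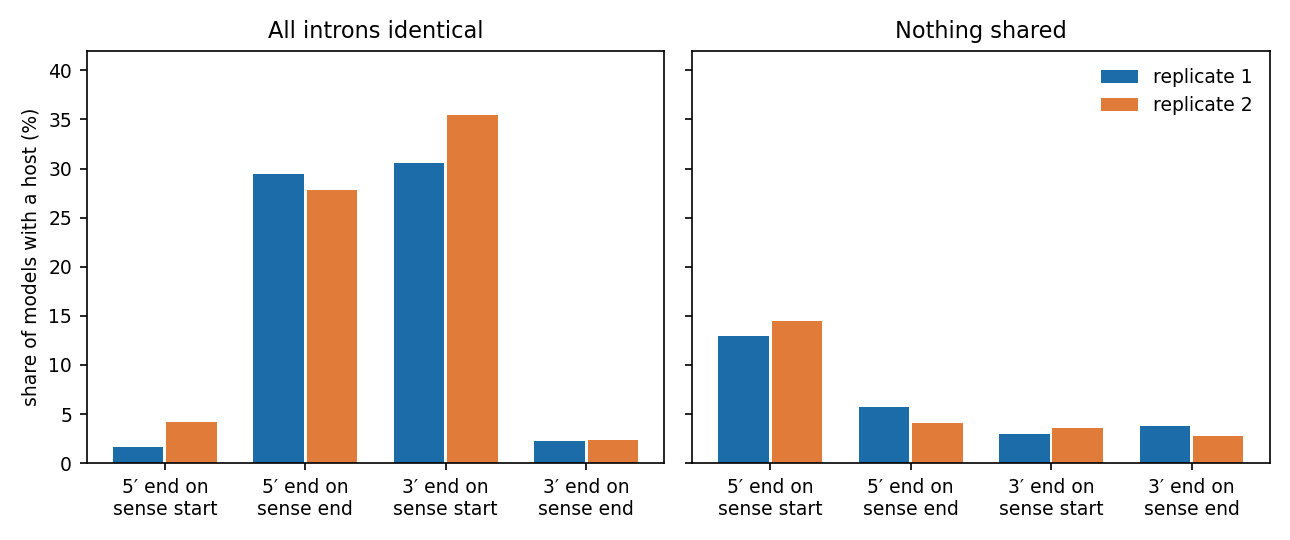
Share of models with an annotated host, in percent, whose 5′ or 3′ end lies on the exact base of an annotated start or end of a host transcript. Mirror models (left) begin on a sense end in 29.4% and 27.8% and end on a sense start in 30.6% and 35.5%. Among models that share nothing (right), a 5′ end on a sense start is the most frequent coincidence drawn, at only 13.0% and 14.5%.

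Most antisense models began more than 1 kb from any annotated start of the host. The distance from the 5′ end of a model to the nearest annotated start of the host had a median of 5738.5 bases in replicate 1 and 4554.5 bases in replicate 2. Within 1 kb lay 111 of 598 models with an annotated host (18.6%, exact 95% interval 15.5 to 21.9%) and 153 of 630 (24.3%, 21.0 to 27.8%). Measured to the start of the whole gene instead, the mean share over libraries was 7.78% rather than 21.4%. Of the models that shared nothing, 52 and 64 lay at exactly 0 bases, 4 and 7 at 1 to 300 bases, 21 and 36 at 301 to 1000 bases, 95 and 108 at 1001 to 5000 bases, 180 and 188 at 5001 to 50000 bases, and 48 and 38 beyond. Beside the count on the exact base of a start, few of these models lay at 1 to 300 bases, and most lay beyond 1000 bases.

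**Figure D4:**
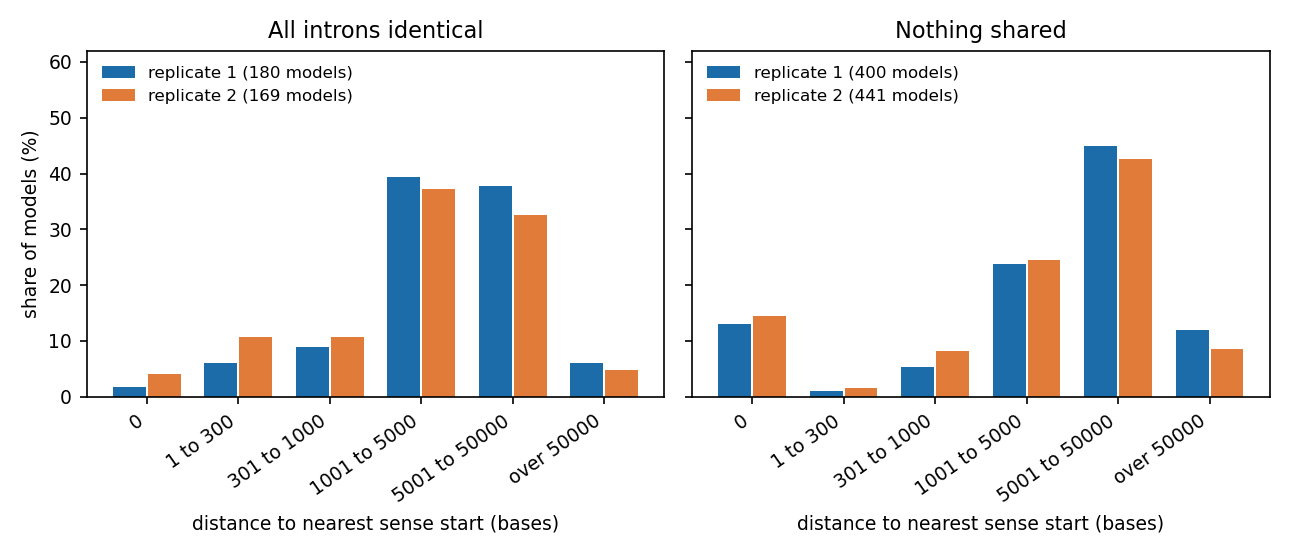
Share of models, in percent, by distance in bases from their 5′ end to the nearest annotated start of the host, for mirror models (left) and models that share nothing (right) in each library. Of the latter, 13.0% and 14.5% lie at exactly 0 bases and 1.00% and 1.59% at 1 to 300 bases.

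Models that ran out of the gene past its start came almost wholly from those that share nothing: 60 and 87 of these did, against 2 and 1 mirror models, and a further 9 and 18, all sharing nothing, extended past both ends of the gene. Most models lay inside the host, 486 in replicate 1 and 481 in replicate 2, and 41 and 43 began past its end without passing its start. Exons of all mirror models overlapped host exons, which follows from their shared intron ends and is no separate result. Among models that shared nothing, exons overlapped host exons in 56.4% and 56.3%. Their introns were most often contained in a host intron: over all members 315 of 824 introns (38.2%) and 316 of 912 (34.6%) were. An annotated RefSeq gene on the model's own strand overlapped 61 and 88 of the models that shared nothing and 13 and 13 mirror models, and reads of such a gene cannot be told apart from theirs.

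Among recurrent chains that share nothing, Anp32a, which encodes an acidic nuclear phosphoprotein that binds histones, led with 8 and 7 antisense reads at chr9:62341554-62344063 and the same ends in both libraries. Its 5′ end lay exactly on an annotated Anp32a start, and the RefSeq gene Gm20346 lies on the same strand. Slc36a2, an amino acid transporter gene, had 3 and 3 antisense reads on its chain, beside 189 and 238 sense reads of the gene. At Dapk3, a kinase gene, there were 3 and 2, and at Tns1, which encodes a protein of focal adhesions, 1 and 2. Gm14326, a gene with a provisional name, had 2 and 6. Ppp2r3d, a phosphatase subunit gene, had 6 and 5, and Neat1 had 4 and 5. Apart from Anp32a, Ppp2r3d and Neat1, the chains named in these sentences had at most 3 reads in at least 1 library.

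At 2 hosts among the named members, a recurrent chain of this kind began inside the RefSeq promoter window and ran away from the gene. The window spans 250 bases before to 50 after the start. The hosts were Tpp2, which encodes a peptidase, with 2 and 1 antisense reads, and Fyn, which encodes a tyrosine kinase, with 2 and 1. The RefSeq gene Gm31616 lies on the strand of the Fyn chain, so reads of that gene cannot be told apart from it. Both windows are printed on the plus strand, the strand of the gene (RefSeq, GRCm38.p6), at chr1:43933744-43934043 and chr10:39369549-39369848, because these starts fall within them, at base 43934007 and base 39369764.
Tpp2: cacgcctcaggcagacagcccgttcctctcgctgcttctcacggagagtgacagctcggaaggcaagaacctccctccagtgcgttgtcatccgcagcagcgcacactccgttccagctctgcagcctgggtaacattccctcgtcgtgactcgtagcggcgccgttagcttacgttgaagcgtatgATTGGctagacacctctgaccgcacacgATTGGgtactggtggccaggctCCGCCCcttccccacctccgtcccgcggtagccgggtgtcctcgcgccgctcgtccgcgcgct
Fyn: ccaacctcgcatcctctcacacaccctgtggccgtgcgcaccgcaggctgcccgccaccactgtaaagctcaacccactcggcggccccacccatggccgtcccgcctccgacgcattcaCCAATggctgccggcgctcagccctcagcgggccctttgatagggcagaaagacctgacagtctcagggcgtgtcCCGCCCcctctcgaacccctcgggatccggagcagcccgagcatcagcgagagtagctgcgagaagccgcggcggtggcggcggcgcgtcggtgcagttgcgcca

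Capitals mark matches, on either strand, to GGGCGG and CCAAT, 2 motifs that do not overlap here. GGGCGG was found once in each window and occurs in 35.7% of 32851 RefSeq promoter windows. CCAAT was found 2 times at Tpp2 and 1 time at Fyn and occurs in 37.4%. TATAAA, searched in the same way and present in 13.6%, was in neither. Both windows held 31 CG pairs, against a median of 7, and 64.0% and 69.0% G or C against a median of 52.7%. A match is a description of the letters only.

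Apart from the Crebbp chain of 6 exons, the chains with most exons that are named here had 1 read or none per library. The chain with 8 exons lay opposite Lgr4, a receptor for R-spondins, with 0 and 1 read. It shared 5 of 7 introns with the host. Opposite Cobll1 a chain of 7 exons with 5 of 6 introns of the host had 1 read in each library, and another had 0 and 1. The RefSeq gene Gm13594 lies on the same strand there. Hosts with several different chains included Itpr2, the inositol trisphosphate receptor gene, with 4 chains, of which 1 was mirror and 2 began exactly on an annotated start and ran out of the gene, each with 1 read in a single library.

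Over all, 1031 genes were hosts in either library and 168 in both, and 92.8% and 91.4% of the models with a host lay opposite a protein-coding gene. Of 18179 annotated genes with reads, 948 were hosts (5.21%). Of the 22 steroidogenic genes with reads 2 were hosts, Mc2r and Fdx1, which encodes the ferredoxin that passes electrons to the mitochondrial P450 enzymes. Opposite Fdx1 a single spliced antisense read was found in replicate 2, beside 262 and 517 sense reads. Antisense reads of a single exon, which lie outside the rule, numbered 11 and 37 at Fdx1. Of the 27 chromaffin genes, 0 were hosts. Among transcription factor genes of the gland and related mesoderm, hosts included Nr2f2, with the chain described above, and Hoxc9, with 0 and 1 read. These list counts are small, and none was tested against the 5.21% of all genes.

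List members with many sense reads had few spliced antisense reads. Sense counts hold models of any exon number, whereas the antisense counts given per gene below hold spliced models alone, an unlike measure. Single-exon antisense reads numbered 9 and 6 at Sparc, 4 and 5 at Sdha and 1 and 4 at Ndufs1. At Atp5a1, Rspo3 and Myh1 they numbered 0 in each library. Sparc, a matrix glycoprotein gene of the capsule list, had 1081 and 1519 sense reads, 2 and 1 antisense reads on a mirror chain and 1 and 0 on another. Of 18 genes in that list 2 were hosts, the other being Rspo3, a Wnt signal enhancer, with 1 and 0 reads. Of 17 respiratory chain genes 3 were hosts. Atp5a1, the alpha subunit of ATP synthase, had 1755 and 2255 sense and 0 and 2 antisense reads. Sdha, of complex II, had 859 and 1005 sense and 1 and 0 antisense reads, and Ndufs1, of complex I, had 320 and 370 sense and 1 and 0 antisense reads. Of 16 skeletal muscle genes 1 was a host, Myh1, a fast myosin, with 1 and 0 antisense reads beside 510 and 47 sense reads. The adipose, kidney and liver lists held 0 hosts among 14, 11 and 10 genes with reads.

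The antisense share of a host's reads was compared between libraries for the 11 hosts with 10 or more reads of each strand. Antisense reads were those of spliced models of the antisense class alone. Of these, 3 were called (27.3%, two-sided Fisher's exact test, Benjamini-Hochberg, adjusted p below 0.05). They were Mc2r with 82.1% and 3.45% antisense (adjusted p = 1.13e-12), Ubl3 with 21.2% and 1.38% (adjusted p = 4.86e-07) and Ccdc80 with 33.3% and 0% (adjusted p = 0.00518). Counting spliced models of any class of the antisense gene ended all 3 calls: of 18 hosts then tested 0 were called (0%), 0 had an unadjusted p below 0.05, and each adjusted p was 1. The shares were then 84.0% and 78.8% for Mc2r, 21.2% and 21.0% for Ubl3, and 40.5% and 40.0% for Ccdc80. In each of the 3, the same intron chain had been listed as antisense in replicate 1 and under another class in replicate 2.

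On the count of any class, spliced antisense reads were the majority in both libraries at 3 of these 18 hosts. Hosts with fewer reads of either strand, such as Gtf2a1, were not among the 18. Crebbp had 30 of 37 reads antisense in replicate 1 (81.1%) and 26 of 31 in replicate 2 (83.9%), Mc2r 63 of 75 and 104 of 132, and Igf1r 12 of 18 (66.7%) and 28 of 36 (77.8%). Rian, an imprinted noncoding RNA gene, had 7 of 14 (50.0%) and 5 of 8 (62.5%). The exact intervals of the libraries overlapped at each of the 18 hosts.

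**Figure D5:**
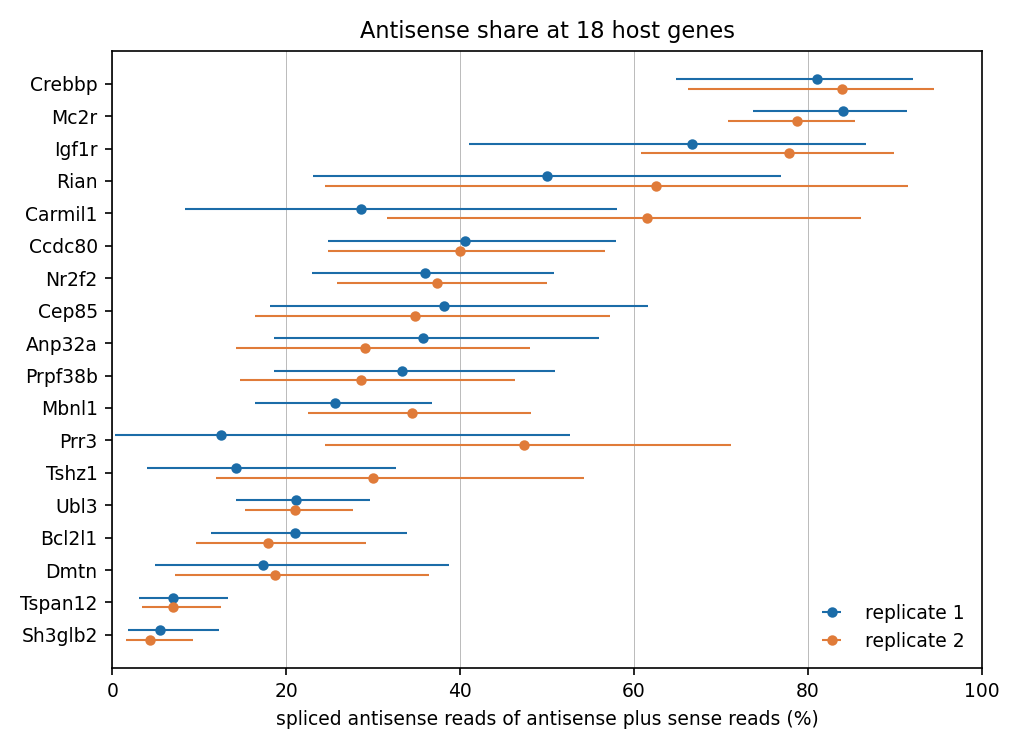
Spliced antisense reads as a percentage of antisense plus sense reads at the 18 hosts with 10 or more reads of each strand summed, counting models of any class of the antisense gene. Dots are libraries and bars exact 95% intervals. Shares are lowest at Sh3glb2 (5.43% and 4.38%) and reach 84.0% and 78.8% at Mc2r and 81.1% and 83.9% at Crebbp, and the bars of the libraries overlap at each host.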

How the data were processed

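Per the notes in the deposit and the headers, the authors built transcript models per library with TALON on mm10 and GENCODE M21 and deposited counts, whole reads per model with no normalization. Exon numbers, lengths and coordinates, which are no measurements of level, were deposited beside them. The aligner, tool versions, the filters and the way reads got a strand were not stated there. Replicate 1 held 606677 reads and replicate 2 held 788654, of which 13619 and 16617 lay on ERCC sequences; SIRV reads were not analysed here.

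Introns were read from the deposited gene models, and each was set beside M21 introns of the opposite strand. The distance to a start is signed into the host. CPM used reads without ERCC. The host is the gene that TALON names as antisense partner. Shares have exact Clopper-Pearson intervals. Chains with 10 or more reads summed were compared between libraries (pseudocount 0.5 reads for the fold), with edgeR 4.0.16 as an alternative (common dispersion, square root 0.249). That dispersion was estimated from the 2 libraries under comparison. Intron matching, distance, read minimum and totals were varied. The binomial test was tested on simulated data (10173 models). Replicates may be technical. The binomial and Fisher p-values rest on counting error alone and hold no measure of the spread between libraries. Python 3.11.15, scipy 1.17.1 and numpy 2.4.6 were used.

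Named members are the 20 chains with most reads as antisense class, the 10 with most exons, the 10 hosts with most chains, the first 10 that share nothing in both libraries, the first 10 with an identical intron, and hosts on 9 lists; Ppp2r3d, Neat1, S100pbp, Rian, Zfp512b and Emg1 are named outside it, after their values were seen. A result that the naming rule would give is not reported here. Members and lists were chosen with earlier results of these data known.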

Additional observations from a re-analysis of the deposited data

Results flagged for a closer look

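Spliced models of other classes within antisense genes lay outside the rule and still held reads. There were 152 such models with 224 reads in replicate 1 and 196 models with 441 reads in replicate 2. Of these reads, 58 and 203 were on mirror models, the Mc2r chain among them in replicate 2.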

How the results depend on the processing

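Most members rest on 1 read. With at least 2 reads, 73 and 90 models remained, with at least 5 reads 13 and 16, and with at least 3 exons 143 and 180. Of the 84 chains in both libraries, 34 had 2 or more reads in replicate 1 and 34 in replicate 2. The share of models with an identical intron was 30.3% as the mean of the libraries, 45.4% among models with 2 or more reads, and 28.8 to 31.8% with either library left out. The share within 1 kb of a start was 21.4%, but 7.78% from the start of the gene, 13.7% within 300 bases and 50.0% within 5 kb, and 18.6 to 24.3% with either library left out. The count of hosts whose antisense share differed was 3, but 11 with single-exon antisense reads added and 0 with any class, an alternative chosen after seeing the data. The cause was not tested except for the last, where the class given to the same chain differed. Without the Mc2r host, also chosen after seeing the data, the share of reads on mirror models in replicate 1 was 41.2% rather than 44.9%. Where 1 identical intron was enough, 119 chains of replicate 1 were matched rather than 84, and with intron ends within 10 bases 88 were. With any class accepted in replicate 2 or replicate 1, 105 and 107 were matched. The share with an identical intron was 25.8% against introns of sense models listed in the same library, and 32.9% with both ends within 10 bases. The count of chains that differed between the libraries stayed at 0 in each alternative. No paired analysis was possible because there is 1 group. Depth limits single models: 0 reads allow 5.06 and 3.89 CPM.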
